A study of Mus musculus with 6 samples.

Results

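Cells with the transcripts of classical (Ly6C-high) monocytes were taken from the lineage-negative marrow of Stag2 knockout and wild type mice. They made up 292 of the 24307 cells with at least 500 detected genes. A cell was taken when it held at least 1 unique molecular identifier (UMI) of Csf1r and at least 3 of Ly6c2, F13a1 and Ccr2 together. It also had to hold fewer than 10 UMIs of the MHC class II genes H2-Aa, H2-Ab1 and H2-Eb1, at most 2 of the nonclassical monocyte genes Ear2, Fcgr4, Ace and Gngt2, and at most 1 of Siglech. Mpo had to stay under 0.2% and Elane under 0.5% of the cell's UMIs, and Mki67, Top2a, Cdk1, Ccnb1, Ccnb2 and Ube2c at 1 UMI or fewer in all. The chosen cells numbered 49, 54 and 44 in knockout samples KO1, KO2 and KO3, and 21, 57 and 67 in wild type samples WT1, WT2 and WT3. Samples are the genotypes "Stag2 KO" (3 mice) and "Stag2 wt" (3 mice) of the labels, all from Lin- haematopoietic stem and progenitor cells, sequenced with 10x Chromium 3' version 2 chemistry. Neither the knockout allele and its driver nor the age of the mice is stated in the labels. The comparison asks what loss of Stag2, a subunit of the cohesin ring that folds chromatin into loops, alters in cells entering the monocyte lineage.

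Classical monocytes leave the marrow through the chemokine receptor Ccr2, enter inflamed tissue and can become macrophages or dendritic cells there. They carry the receptor for colony stimulating factor 1 (Csf1r) and depend on the transcription factors Spi1 (PU.1), Irf8 and Klf4. In mice they are known to arise by more than 1 route, from granulocyte-monocyte progenitors and from monocyte-dendritic cell progenitors.

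The libraries held 16155065 to 36248233 UMIs in 2604 to 7053 cells. Of the 15 pairs of libraries, each shared 11 to 48 cell barcodes. No barcode was a chosen cell in more than 1 library, and 8 barcodes of chosen cells also occurred in another library. The sample titles carry a code that begins with XA in KO1, KO2, KO3 and WT1, with XG in WT2 and with XN in WT3, and what it marks is not stated in the labels. WT1 is therefore the wild type sample that shares the knockouts' code, and its values are given throughout. It also held the fewest chosen cells. Stag2 itself stood at 31.6, 30.5 and 14.2 CPM in KO1, KO2 and KO3, from 8, 10 and 4 UMIs. CPM is the share of a gene in all UMIs of the chosen cells of a sample, scaled for depth and composition. In WT1, WT2 and WT3 it stood at 51.7, 63.0 and 56.3 CPM, from 7, 30 and 21 UMIs. All knockout values lay below all wild type values, but the log2 fold change of -1.19 (SE 0.35) did not pass the test in so few cells (edgeR adjusted p = 0.12). Over all kept cells Stag2 fell by 1.06 on the log2 scale and passed it. Stag1, the subunit that can replace it, stood at 39.1 to 47.4 CPM in the knockouts and at 7.38, 33.6 and 42.9 CPM in WT1, WT2 and WT3. Its groups overlapped (log2 fold change 0.34, SE 0.39, edgeR adjusted p = 0.744).

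Genes that the rule did not use gave the cells a monocyte profile. Lyz2, the macrophage lysozyme, averaged 11401 CPM against 779 in all other kept cells. Fn1 (fibronectin), Wfdc17 (an anti-inflammatory secreted protein), Ifitm6, S100a4, Tgfbi, S100a6 and the transcription factor Klf4 also led, at 2.97 to 3.67 log2 units above the other cells with 5 CPM added to each level. Of 26 genes known from classical monocytes, most of those just named among them, 16 stood at least 2-fold above all other kept cells with that addition and 20 by the plain ratio of means. Ms4a6c was 1 of them, at 938 CPM against 171. Plac8 and Ccl6 stood lower than in the other cells. Because the cells were chosen by these transcripts, such contrasts are a description. Defining genes of macrophages (C1qa, C1qb, C1qc), of B cells (Ebf1, Pax5, Ms4a1), of neutrophils (Ly6g) and of eosinophils (Epx) were at 0 UMIs in every sample. Other markers of these types were found. The summed markers ran over samples from 3.56 to 51.7 CPM for macrophages and from 22.2 to 90.2 CPM for B cells. They ran from 8.39 to 189 CPM for late neutrophils and from 0 to 44.3 CPM for eosinophils. In the other kept cells the macrophage sum was 14.3 to 22.9 CPM and the B cell sum 44.8 to 220 CPM. The sum of 8 conventional dendritic cell markers, Cd209a and Flt3 among them, was mostly higher in the chosen cells. It ran from 97.7 to 493 CPM, against 43.8 to 106 CPM in the other kept cells. Granulocyte progenitor markers summed to 222 to 1412 CPM against 2943 to 6552 CPM, and plasma cell markers to 571 to 1059 CPM against 363 to 2270 CPM.

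The rule left some room at its edges. Csf1r was held by a single UMI in 183 of the 292 cells, and 2450 cells that met all other conditions had none. The sum of Ly6c2, F13a1 and Ccr2 had a median of 13 UMIs per cell and was at the limit of 3 in 19 cells, while 30 cells missed it with 2. The cell cycle genes were at the limit of 1 UMI in 91 cells, and 58 cells missed it with 2.

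The word nondividing holds for the genes of late cycle that the rule reads, not for DNA replication. At least 3 UMIs of 21 S phase genes, which encode replication proteins, were found in 132 of the 292 cells. After each cell with at least 2000 UMIs was thinned to 2000, 2 or more S phase UMIs remained in 21.3% (KO1), 28.3% (KO2) and 25% (KO3) of knockout cells. In the wild type this held for 38.1% (WT1), 57.4% (WT2) and 40.0% (WT3). Every knockout sample lay below every wild type sample, with means of 24.9% ± 3.51 and 45.2% ± 10.6 (SD, n = 3 each). The 2-sided exact permutation p was 0.1, the smallest that 3 against 3 samples allow. The unthinned shares with 3 or more such UMIs were 28.6% to 38.9% and 49.3% to 66.7%, and 8 cells with fewer than 2000 UMIs were left out by the thinning. The summed level of the S phase genes did overlap, at 688 to 891 CPM in the knockouts and at 694 (WT1), 1807 (WT2) and 1338 CPM (WT3).

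**Figure D1:**
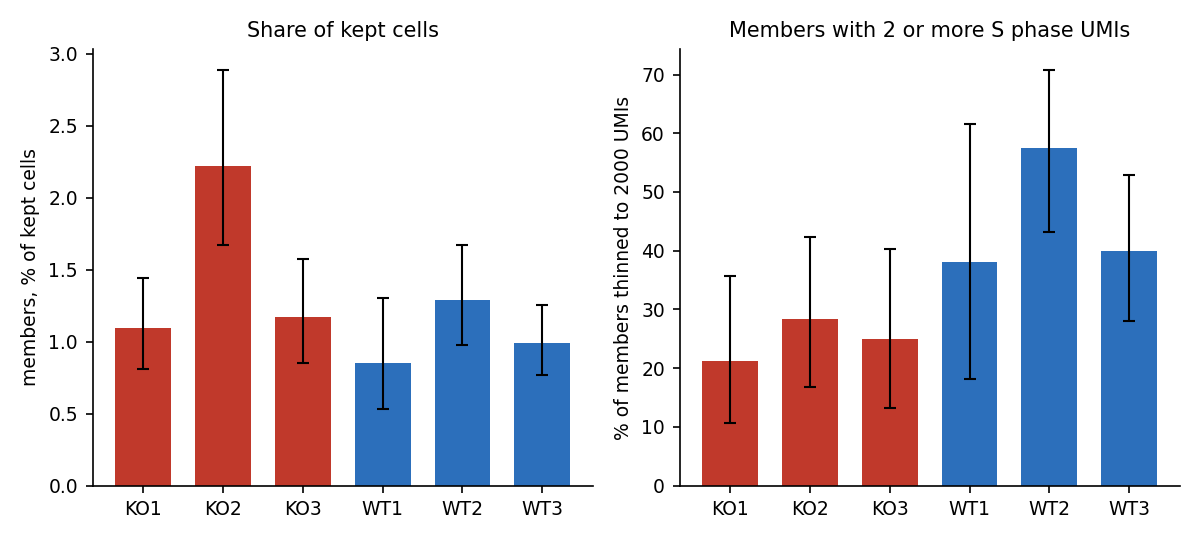
Left, chosen cells as a percentage of kept cells in each sample. Right, percentage of chosen cells, thinned to 2000 UMIs, with 2 or more UMIs of S phase genes. Bars are single samples (red knockout, blue wild type) and error lines are 95% exact binomial intervals, which cover counting error only. KO2 stands highest on the left at 2.22%, and the 3 knockout bars on the right, at 21.3% to 28.3%, lie below the 3 wild type bars.

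Classical monocyte-like cells were 1.09% (KO1), 2.22% (KO2) and 1.17% (KO3) of kept knockout cells. They were 0.854% (WT1), 1.29% (WT2) and 0.989% (WT3) of kept wild type cells. WT2 lay above 2 of the 3 knockout samples, so the groups overlapped. The means were 1.5% ± 0.629 and 1.04% ± 0.224 (SD, n = 3 each; exact permutation p = 0.4, 2-sided). With the rule applied to thinned cells the shares were 0.787%, 1.86% and 0.671% against 0.920%, 0.651% and 0.889%. Genes detected per cell at 2000 UMIs had sample medians of 864 to 896 in the knockout and 876 to 918 in the wild type (exact permutation p = 0.4, 2-sided). The median UMIs per chosen cell ran from 4727 to 6022 over knockout samples and from 4908 to 7112 over wild type samples.

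Cd209a and Chil3 marked separate sets of the chosen cells. Cd209a, the lectin receptor DC-SIGN of monocyte-derived dendritic cells, was found in 91 cells, and Chil3, the chitinase-like protein Ym1 of granulocyte-linked monocytes, in 39. Only 1 cell held both, and 163 held neither. In erythroid cells, which should lack both genes, the share with a UMI after thinning was at most 0.645% for Cd209a and 1.75% for Chil3. After the same thinning, Cd209a was found in 7.55% to 27.3% of chosen knockout cells and 4.76% to 29.6% of chosen wild type cells. Chil3 was found in 4.55% to 26.4% and 3.70% to 23.8%. Before thinning, the median depth was 7778 to 10646 UMIs in those erythroid cells and 5522 in the Cd209a cells.

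Cells with Cd209a were rich in Cd7 at 1160 CPM, against 34.4 CPM in cells with Chil3. Cd7 is a surface receptor best known from lymphoid and early progenitor cells. They also led in Upb1, Bst2 (tetherin, 1168 against 151 CPM), Klrd1, Flt3 (the receptor of dendritic cell progenitors, 109 against 8.61 CPM) and Runx2. Irf8 stood at 1417 against 495 CPM, Klf4 at 389 against 172 CPM and Cd74, the MHC class II chaperone, at 619 against 263 CPM.

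Cells with Chil3 held 36426 CPM of Lyz2, against 4482 CPM in cells with Cd209a. Mgst1 (a membrane glutathione transferase) stood at 839 against 51.4 CPM, Hp (haptoglobin) at 745 against 49.3 CPM and the transcription factor Cebpb at 637 against 55.5 CPM. Sirpb1c, Pi16, C3, Clec4a2, Clec4a3, Pglyrp1 and Gstm1 led as well. Csf1r at 267 and 232 CPM and Spi1 at 639 and 615 CPM were close in both sets. Cells with neither held 332 CPM of Cd7 and 186 CPM of Mgst1, between both sets. Their Cd74, at 163 CPM, was below both, and their Lyz2, at 7446 CPM over all, was at 11927 CPM in the knockout and at 3475 CPM in the wild type, below the 4392 CPM of wild type cells with Cd209a. These sums run over cells of 6 mice that were split by their own transcripts, so no test is given.

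Samples held these sets in different shares. Cd209a was found in 24.5% (KO1), 13% (KO2) and 36.4% (KO3) of knockout cells and in 19.0% (WT1), 42.1% (WT2) and 41.8% (WT3) of wild type cells. Chil3 was found in 18.4%, 31.5% and 4.55% of knockout cells and in 23.8%, 3.51% and 5.97% of wild type cells, in the same order. KO2 and WT1 were thus the samples richest in Chil3 cells and poorest in Cd209a cells, and the genotypes overlapped in both.

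**Figure D2:**
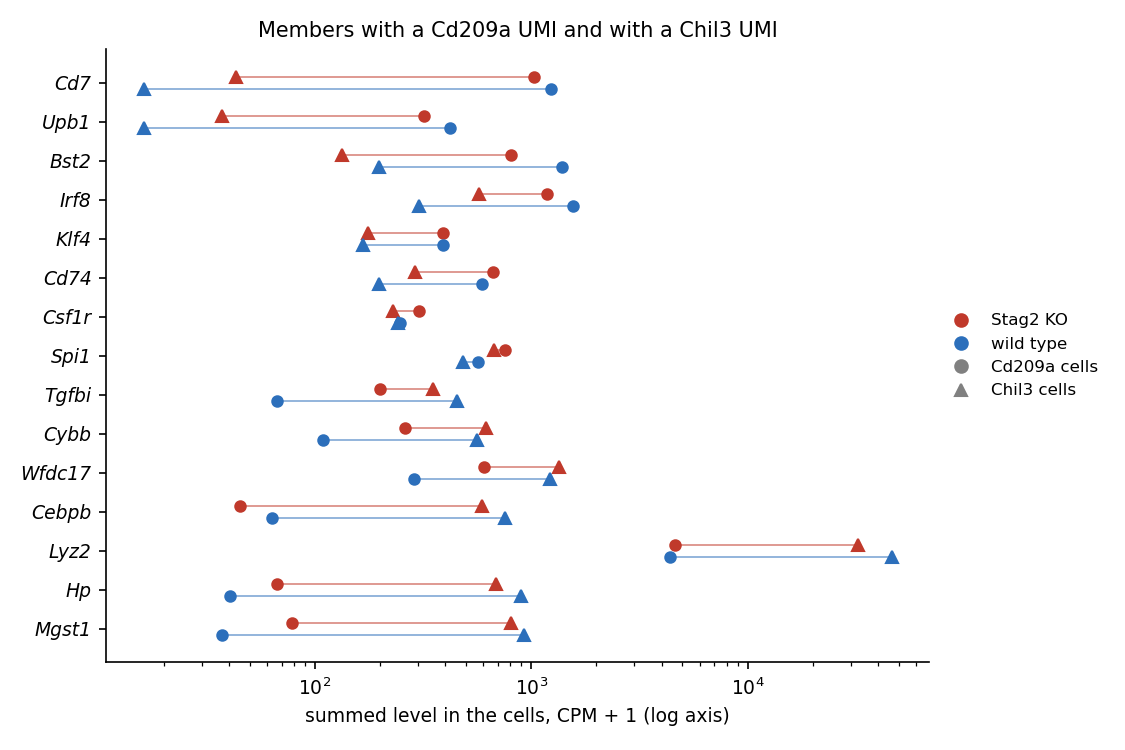
Summed level of 15 genes in chosen cells with a Cd209a UMI (circles) and with a Chil3 UMI (triangles), in knockout (red) and wild type (blue), in CPM + 1 on a log axis. Cd7, Upb1, Bst2, Irf8, Klf4 and Cd74 stand higher in Cd209a cells, Tgfbi, Cybb, Wfdc17, Cebpb, Lyz2, Hp and Mgst1 in Chil3 cells, and Csf1r and Spi1 lie close together.

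Between the genotypes, 33 of 3415 tested genes changed (0.966%; edgeR quasi-likelihood test on UMIs summed per sample, Benjamini-Hochberg adjusted p under 0.05). Of these, 12 were higher (0.351%) and 21 lower (0.615%) in the knockout, and 3 were predicted genes or clone names that are counted but not described. The genotypes did not overlap for 30 of the 33, against 17.8% of all tested genes. The count was 6, 17 and 34 without KO1, KO2 and KO3, and 173, 16 and 10 without WT1, WT2 and WT3. It was 7 with the title code as a covariate, and then 3 of the 33 calls remained, for Slpi, Ifitm1 and Klrk1. The covariate set code XA against the other codes, which only wild type samples carry. Its genotype effect therefore compares the knockouts with the 21 cells of WT1 alone, here and below. The p-values measure the spread between these 3 and 3 samples.

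Among the genes that rose in knockout cells were Mcemp1, Igsf6, Tgfbi and 2 subunits of the phagocyte oxidase. Mcemp1, a membrane protein of myeloid and mast cells, stood at 174, 192 and 174 CPM in KO1, KO2 and KO3 and at 51.7, 67.1 and 61.7 CPM in WT1, WT2 and WT3. All knockout values were far above all wild type values, with WT1 the lowest of them. Its rise was 1.53 on the log2 scale (SE 0.23, edgeR adjusted p = 0.00284), and the call remained without each single sample. A Mcemp1 UMI was found in 17% to 21.3% of thinned knockout cells and in 7.41% to 9.52% of thinned wild type cells, and in at most 1.08% of erythroid cells. Igsf6, an immunoglobulin-family receptor of myeloid cells, stood at 202, 195 and 149 CPM against 88.6, 54.6 and 64.3 CPM. It too did not overlap (log2 fold change 1.49, SE 0.25, edgeR adjusted p = 0.00661).

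Tgfbi, a secreted matrix protein of monocytes and macrophages, stood at 225, 272 and 206 CPM in the knockout samples. In WT1, WT2 and WT3 it stood at 148, 44.1 and 64.3 CPM. WT1 lay nearest to the knockouts (log2 fold change 1.72, SE 0.31, edgeR adjusted p = 0.0119). Cybb, the catalytic subunit of the phagocyte NADPH oxidase that makes superoxide, stood at 364, 449 and 256 CPM against 236, 94.4 and 96.5 CPM. Here WT1 reached almost to KO3 (log2 fold change 1.51, SE 0.29, edgeR adjusted p = 0.0205). Ncf4, a cytosolic subunit of the same oxidase, stood at 379.5, 177 and 185 CPM against 126, 96.5 and 67.0 CPM (1.42 on the log2 scale, edgeR adjusted p = 0.0300). Of the 6 fits that left out 1 sample, 2 called Tgfbi, 2 called Cybb and 3 called Ncf4. With the title code as a covariate the log2 fold changes were 0.67, 0.60 and 0.95 in the same order.

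Hp and Mgst1, which were higher in cells with Chil3, rose as well. Hp stood at 324, 360.1 and 249 CPM against 229, 111 and 118 CPM (1.16 on the log2 scale, edgeR adjusted p = 0.0300). Mgst1 stood at 320.2, 479 and 228 CPM against 229, 96.5 and 129 CPM, so that WT1 and KO3 overlapped (1.33 on the log2 scale, edgeR adjusted p = 0.0395). Hp and Mgst1 were each called in 2 of the 6 fits that left out 1 sample. Their log2 fold changes were 0.45 and 0.59 with the title code as a covariate. Within each genotype the share of cells with Chil3 ran in the same order as both genes, highest in KO2 and in WT1. Across genotypes it did not, since KO3 with 4.55% of such cells stood near WT1 with 23.8% in both genes. With the 39 Chil3 cells taken out, the log2 fold changes were 1.54 for Hp, 1.73 for Mgst1, 1.75 for Cybb and 2.35 for Tgfbi. Each of these genes passed the test again there. With the 91 Cd209a cells taken out instead, they were 0.99, 1.12, 1.52 and 1.69 in the same order. None of these genes was among the 7 called in that fit. The part of the cell sets in these rises was not tested. Within cells holding Cd209a, the summed level of Tgfbi was 198 CPM in the knockout and 65.7 CPM in the wild type, and that of Cybb 258 and 108 CPM.

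The other rises were of lower level. Trem2, a lipid-sensing receptor of macrophages, stood at 75.1, 51.9 and 53.4 CPM against 29.5, 14.7 and 13.4 CPM (log2 fold change 1.83). Ltb4r1, the receptor of the chemoattractant leukotriene B4, stood at 158, 162 and 78.2 CPM against 59.1, 31.5 and 48.3 CPM (log2 fold change 1.63). Tspan32, a leukocyte tetraspanin, stood at 154, 109.9 and 92.5 CPM against 44.3, 39.9 and 40.2 CPM (log2 fold change 1.52). In none of these genes did the genotypes overlap. Klrb1f, a lectin-like receptor, was lowest in WT1, at 14.8 CPM, with 46.2 and 48.3 CPM in WT2 and WT3 and 88.9 to 128 CPM in the knockouts (log2 fold change 1.45). The long noncoding RNA Neat1, a scaffold of nuclear paraspeckles, rose by 1.32 on the log2 scale with overlapping groups, since WT1 at 192 CPM exceeded KO3 at 185 CPM.

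The fall with the smallest p was that of Slpi, a secreted inhibitor of neutrophil elastase and related proteases. It stood at 47.4, 88.5 and 46.2 CPM in KO1, KO2 and KO3, while WT1, WT2 and WT3 held 236, 397 and 367 CPM. The groups were far apart (log2 fold change -2.47, SE 0.27, edgeR adjusted p = 0.000207). A Slpi UMI was found in 10.6%, 15.1% and 6.82% of thinned knockout cells and in 28.6%, 44.4% and 35.4% of thinned wild type cells. In erythroid cells the share was 0% in each knockout sample and 3.57%, 1.29% and 3.56% in WT1, WT2 and WT3. Unthinned, the shares were 16.3% to 25.9% and 47.6% to 61.2%. The call held in all 23 alternative fits in which the gene was tested, the title code covariate included.

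Rexo2, an exonuclease that degrades short RNA in mitochondria, stood at 119, 177 and 160.1 CPM against 332, 434 and 445 CPM (log2 fold change -1.42, SE 0.20, edgeR adjusted p = 0.00284). Fabp5, a fatty acid carrier, stood at 51.4, 58.0 and 67.6 CPM against 155, 149 and 131 CPM (-1.28 on the log2 scale, edgeR adjusted p = 0.0198). Neither gene overlapped between genotypes, and WT1 lay with the other wild type samples in both. H2-DMa, which helps load peptides on MHC class II, stood at 356, 311 and 405 CPM against 524, 751 and 737 CPM (log2 fold change -0.93). Other falls without overlap were those of Ran (nuclear transport, -0.84), Impdh2 (guanine nucleotide synthesis, -1.01), Lsm7 (RNA splicing and decay, -1.20) and the ribosomal protein gene Rpl35 (-0.66). Stmn1, a microtubule regulator of proliferating cells, fell by 1.61 on the log2 scale with overlapping groups, at 134 to 256 CPM against 244 (WT1), 732 (WT2) and 651 CPM (WT3). The share of cells with S phase UMIs moved in the same direction as Stmn1, and Stmn1 passed the test again in the 160 cells with fewer than 3 S phase UMIs. In those cells 10 genes were called, and of 20 of the 33 genes that could be tested there 5 remained, Slpi, Rexo2, Klrb1f and Stmn1 among them.

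Several of the falling genes are known from lymphoid and dendritic cells. Klrk1 (NKG2D) stood at 14.2 to 18.3 CPM in the knockouts and at 126 (WT1), 69.2 (WT2) and 48.3 CPM (WT3), a log2 fold change of -2.10. Klrd1 (CD94) stood at 19.8, 30.5 and 53.4 CPM against 162, 115 and 80.4 CPM, a log2 fold change of -1.67. Both are lectin-like receptors best known from natural killer cells. The summed level of 9 T and NK cell markers was 10.7 to 150 CPM in the knockouts and 170.0 to 1233 CPM in the wild type, highest in WT1, and its part in these falls was not tested. None of those 9 markers was at 0 in every sample. Among them, Ccl5 was at 3.95, 125 and 0 CPM against 945, 111 and 306 CPM (-3.08 on the log2 scale, edgeR adjusted p = 0.0614).

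Ly6d, a surface protein of lymphoid-primed progenitors, stood at 7.91, 6.10 and 10.7 CPM in the knockouts and at 66.5, 44.1 and 156 CPM in the wild type (-3.41 on the log2 scale, edgeR adjusted p = 0.0108). Atp1b1, a sodium pump subunit, stood at 7.91 to 17.8 CPM against 36.9 to 61.7 CPM (log2 fold change -1.88). Both belong to a list of 7 plasmacytoid dendritic cell markers whose sum was 51.9 to 88.9 CPM in the knockouts and 148 to 381 CPM in the wild type. Klk1 of that list was at 0 throughout. Within the cells with Cd209a, Ly6d stood at 220.1 CPM in the wild type and had no UMI in the knockout, and Klrd1 stood at 168 and 27.5 CPM. Marker UMIs of other lineages were common, with 3 or more in 244 of the 292 cells. In the 280 cells that stayed after removal of those with at least 1% of their UMIs from such markers, Klrk1, Klrd1, Ly6d and Ifitm1 passed the test again. In the 48 cells with fewer than 3 such UMIs, 1 of them from WT1, only 507 genes could be tested and 1 was called. With the 16 chosen cells scored as doublets removed, 30 of the 33 called genes could be tested and 26 passed again. Ifitm1 was among those 26, while Klrk1, Klrd1, Ly6d and Atp1b1 were not, by failing the test or by being too low to test.

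Cnn3, an actin-binding calponin, was found with 2 UMIs in all knockout cells together and with 62 in the wild type. It was at 0, 0 and 7.11 CPM against 36.9, 77.6 and 53.6 CPM. The ratio of the summed UMIs was 0.0359, with a 95% counting interval of 0.00426 to 0.135, and the gene passed the test (edgeR adjusted p = 0.00284). Mrpl3 (mitochondrial ribosome), Gria3 (a glutamate receptor subunit) and Syce2 (a meiotic chromosome protein) also fell without overlap, with log2 fold changes of -2.18, -1.71 and -1.68. Their knockout levels were 3.05 to 39.5 CPM, so single UMIs weigh in them.

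**Figure D3:**
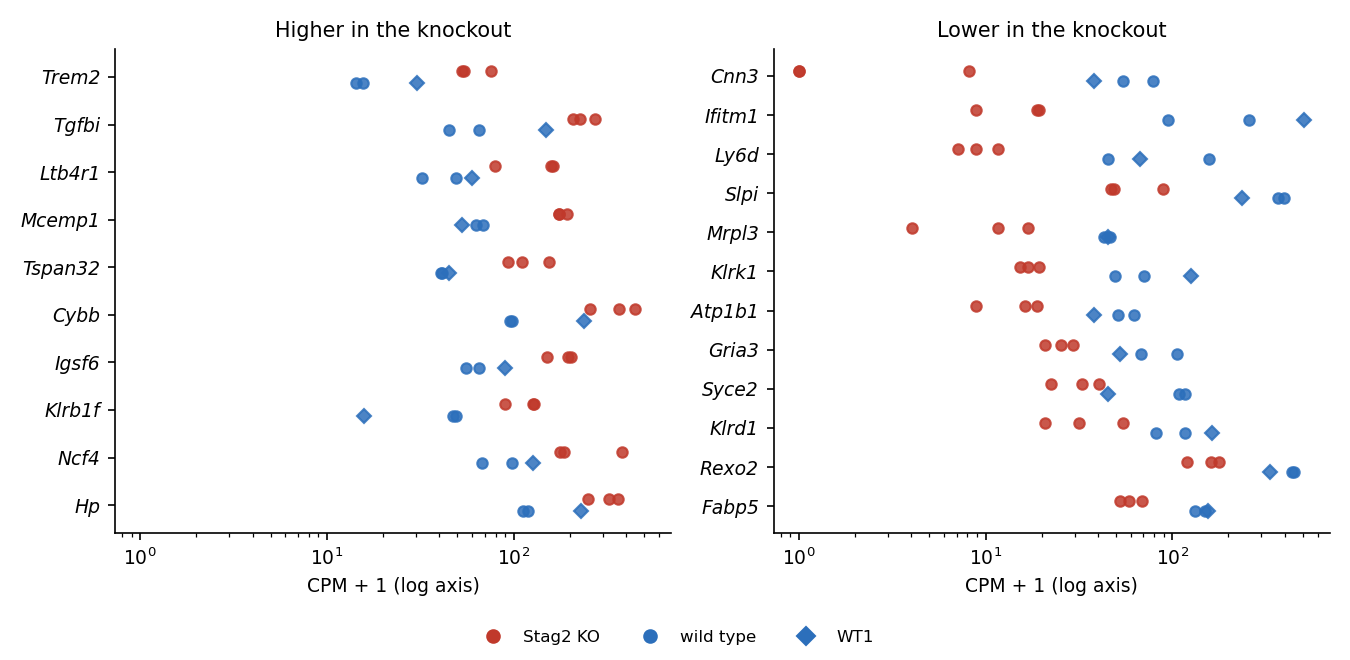
Level in each sample of the 10 rises and 12 falls that were largest among called genes without overlap, in CPM + 1 on a log axis, with knockout samples in red, wild type samples in blue and WT1 as a diamond. Genes whose groups overlap (Mgst1, Neat1 and Stmn1) are not drawn. WT1 is the wild type point nearest the knockouts for 8 of the 10 rises and 6 of the 12 falls, and farthest from them for Mcemp1, Klrb1f, Ifitm1, Klrk1, Klrd1 and Fabp5.

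The 4 Ifitm genes, which encode small membrane proteins that block virus entry, lie near each other on chromosome 7 and did not move alike. Their promoters are shown because the genes are neighbours of 1 family with different values. Each is the 250 bases before the start site as RefSeq gives it (GRCm38.p6), 5′ to 3′ on the gene's strand. Capitals mark the core of the interferon-stimulated response element, searched on both strands as GAAANNGAAA.
Ifitm1, chr7:140967826-140968075, plus strand: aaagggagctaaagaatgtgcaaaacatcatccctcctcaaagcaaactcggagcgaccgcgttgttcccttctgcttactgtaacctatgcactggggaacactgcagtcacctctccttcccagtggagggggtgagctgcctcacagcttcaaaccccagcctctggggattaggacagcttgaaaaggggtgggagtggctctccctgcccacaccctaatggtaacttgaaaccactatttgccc
Ifitm2, chr7:140955962-140956211, minus strand: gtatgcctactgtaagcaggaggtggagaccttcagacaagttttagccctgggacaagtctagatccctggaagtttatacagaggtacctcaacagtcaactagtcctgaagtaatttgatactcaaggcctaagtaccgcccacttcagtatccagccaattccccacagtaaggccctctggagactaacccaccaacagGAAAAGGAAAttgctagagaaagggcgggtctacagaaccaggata
Ifitm3, chr7:141010745-141010994, minus strand: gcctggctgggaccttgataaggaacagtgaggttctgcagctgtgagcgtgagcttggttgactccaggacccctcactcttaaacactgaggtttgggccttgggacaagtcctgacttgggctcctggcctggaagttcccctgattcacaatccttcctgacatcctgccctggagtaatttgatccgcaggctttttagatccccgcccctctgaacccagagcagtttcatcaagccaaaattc
Ifitm6, chr7:141016893-141017142, minus strand: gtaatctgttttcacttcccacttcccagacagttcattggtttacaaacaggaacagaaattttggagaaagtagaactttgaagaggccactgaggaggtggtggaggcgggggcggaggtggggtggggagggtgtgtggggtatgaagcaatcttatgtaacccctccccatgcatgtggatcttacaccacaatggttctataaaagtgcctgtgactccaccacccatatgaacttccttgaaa
The core was found in Ifitm2 alone of the 4, and in 2.97% of 32807 RefSeq promoters of this length. These letters describe the window and say nothing about binding. Ifitm1 stood at 7.91, 18.3 and 17.8 CPM in KO1, KO2 and KO3 and at 509, 94.4 and 257 CPM in WT1, WT2 and WT3. Knockout and wild type were far apart, with WT1 the highest (log2 fold change -4.04, SE 0.58, edgeR adjusted p = 0.00284), and the call remained without each single sample. An Ifitm1 UMI was found in 14.3%, 9.26% and 18.5% of thinned wild type cells and in 1 thinned knockout cell of KO1. Erythroid cells held 1 more often, in 39.3%, 23.9% and 37.3% of wild type cells and 7.02% to 10.4% of knockout cells. The shares in the chosen cells were thus not above those in erythroid cells, where the knockout share was lower as well. Ifitm2 stood at 804 to 1107 CPM in the knockouts and 678 to 1041 CPM in the wild type, Ifitm3 at 1608 to 2325 and 1093 to 2709.7 CPM, and Ifitm6 at 292 to 447 and 134 to 687 CPM. Their groups overlapped, with log2 fold changes of 0.13 (SE 0.17), 0.15 (SE 0.24) and 0.47 (SE 0.42) and edgeR adjusted p of 0.785, 0.835 and 0.652. Whether Ifitm1 differs from its neighbours was not tested. The summed level of 8 basophil and mast cell markers, none at 0 in every sample, overlapped at 487 to 1352 CPM and 401 to 3314 CPM. With the title code as a covariate the log2 fold changes of Ifitm2, Ifitm3 and Ifitm6 were -0.16, -0.55 and -0.81, and that of Ifitm1 was -5.04.

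Among the gene lists, 12 genes that changed belonged to any list. Of 22 tested classical monocyte genes that the rule did not use, 4 rose (Tgfbi, Hp, Mgst1 and Cybb) and none fell, with a median log2 fold change of 0.40 against 0.01 over all tested genes. That median was -0.03 with the title code as a covariate, and 0.06 in the 160 cells with fewer than 3 S phase UMIs. The NADPH oxidase and redox list had 2 of 18 higher, Cybb and Ncf4, with a median of 0.18. Among 10 tested genes of monocyte-derived dendritic cells, Klrd1 and H2-DMa fell, and the median was -0.39, but 0.047 with the title code as a covariate and -0.054 without KO2. Clec10a, a lectin of such cells, stood at 27.7 to 32.0 CPM against 52.5 to 69.7 CPM without passing (-1.02 on the log2 scale, edgeR adjusted p = 0.148). Cd74 went the other way, at 328, 403 and 369.9 CPM against 192, 216 and 255 CPM (0.71 on the log2 scale, edgeR adjusted p = 0.0614).

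Transcription factors of the lineage did not pass the test, with 0 of 24 called and a median of 0.34. That median was 0.15 with the title code as a covariate and 0.080 in cells with fewer than 3 S phase UMIs. At an unadjusted p under 0.05, 9 of the 24 were higher and 0 lower, where 7.32% and 7.06% of all tested genes were. Spi1 stood at 668, 641 and 576 CPM against 450.4, 481 and 475 CPM, without overlap (log2 fold change 0.42, SE 0.15, edgeR adjusted p = 0.2). Cebpa, which drives granulocyte and monocyte fate, stood at 90.9 to 114 CPM against 50.9 to 73.8 CPM (0.78 on the log2 scale, edgeR adjusted p = 0.172). Irf8 at 861 to 1483 and 923 to 1421 CPM, Klf4 at 217 to 345 and 227 to 251 CPM, and Cebpb at 167 to 305 and 138 to 317 CPM overlapped, with log2 fold changes of -0.11, 0.24 and 0.33. Cebpe, Gfi1 and Nr4a1 were too low to test.

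S phase genes had 0 of 11 called and a median of -0.70, with all 11 negative, where 1680 of all 3415 tested genes were. The median was 0.40 with the title code as a covariate. Primary granule and progenitor genes had 0 of 14 called and a median of -0.62 (0.30 with that covariate). Hsp90b1 of that list stood at 143 to 209.8 CPM against 273 to 300.3 CPM (-0.66 on the log2 scale, edgeR adjusted p = 0.119). In the list of Cdk inhibitors and D cyclins, with 0 of 7 called, Cdk6 stood at 31.6, 33.6 and 56.9 CPM against 88.6, 103 and 83.1 CPM (-1.18 on the log2 scale, edgeR adjusted p = 0.0614). Interferon-inducible genes had 0 of 14 called and a median of 0.58, which was 0.27 without KO1, 0.21 with the covariate and 0.028 in cells with fewer than 3 S phase UMIs. Bst2 of that list lay lower in the knockout, at 423, 320.5 and 686 CPM against 901, 797 and 877 CPM (-0.85 on the log2 scale, edgeR adjusted p = 0.0614).

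Metabolic lists held a single call. Respiratory chain genes had 0 of 78 called and a median of -0.15, with 57 of the 78 negative beside 1680 of all 3415 tested genes. Cytosolic ribosomal proteins had 1 of 84 lower and a median of 0.02. In the glycolysis list, with 0 of 10 called, Pkm stood at 526 to 717 CPM against 386 to 413 CPM (0.70 on the log2 scale, edgeR adjusted p = 0.0512). Gpi1 at 447 to 491 against 251 to 329 CPM and Aldoa at 501 to 723 against 388 to 448 CPM did not overlap either, with log2 fold changes of 0.64 and 0.66. The list's median was -0.06, and it was 0.55 with the title code as a covariate, 0.47 in cells with fewer than 3 S phase UMIs, 0.13 after thinning and 0.26 without WT2.

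Immune effector lists held few calls. Chemokines and chemoattractant receptors had 1 of 7 higher, Ltb4r1, and the chemokine gene Ccl9 came near it at 708, 1181 and 715 CPM against 679, 308 and 292 CPM (1.11 on the log2 scale, edgeR adjusted p = 0.0532). Protease inhibitors had 1 of 7 lower, Slpi, while Wfdc17 at 491 to 1062 CPM against 172 to 502 CPM overlapped (1.23 on the log2 scale, edgeR adjusted p = 0.0614). Anxa1, an inhibitor of inflammation, stood at 274 to 433 CPM against 185 to 209.8 CPM (0.85 on the log2 scale, edgeR adjusted p = 0.0511). Adhesion and motility genes had 1 of 15 lower, Cnn3. Lysosomal proteins had 0 of 22 called, and the protease gene Lgmn stood at 11.9 to 17.8 CPM against 37.8 to 48.3 CPM (-1.59 on the log2 scale, edgeR adjusted p = 0.0836). Microbial sensors (0 of 5), Fc and paired receptors (0 of 13), cytokine receptors and Socs inhibitors (0 of 13), MHC class I presentation (0 of 13), scavenger and complement genes (0 of 3), immediate early genes (0 of 8), cohesin genes (0 of 10), nonclassical monocyte genes (0 of 7) and neutrophil granule genes (0 of 3) had no call. Csf2ra, a subunit of the GM-CSF receptor, stood at 135 to 208 CPM against 88.6 to 107 CPM (0.79 on the log2 scale, edgeR adjusted p = 0.110). Cx3cr1, the fractalkine receptor, overlapped at 135 to 170.0 and 83.9 to 273 CPM (0.24 on the log2 scale, edgeR adjusted p = 0.793). S100a8 and S100a9, the calprotectin subunits, were high in WT3 alone of the wild type, at 467 and 279 CPM, and low in WT1 and WT2, at 4.20 to 14.8 CPM. The knockouts held 81.8 to 201 CPM of S100a8 and 35.6 to 159 CPM of S100a9.

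**Figure D4:**
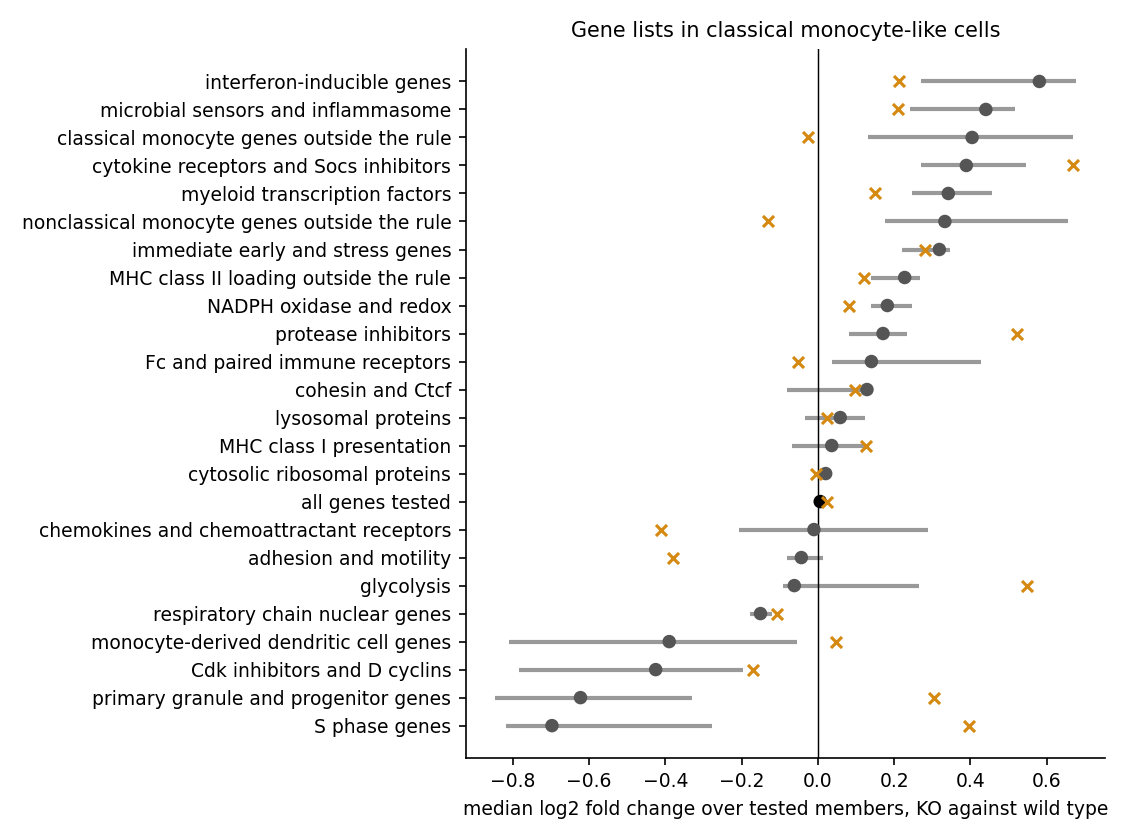
Median log2 fold change, knockout against wild type, over the tested members of each gene list with at least 5 of them. Dots are the values from all 6 samples, grey lines the range when each sample is left out in turn, and orange crosses the values with the title code as a covariate. S phase genes and progenitor genes lie lowest at -0.70 and -0.62, with crosses above 0.

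To see whether these differences belong to this cell group, the genotype effect was set against that in other cells of the same mice, with limma on each sample's difference in log2 CPM. Against all other kept cells, the effect differed for 69 of 3415 genes (2.02%), more positive in the chosen cells for 50 and more negative for 19. Of the 69, 7 were called within the chosen cells and 35 within the other cells. For the rest of the 33 genes called in the chosen cells, no difference of effect was called. That does not show that the effects were alike. Cybb was level in the other cells, at 46.0 CPM in the knockout and 44.5 CPM in the wild type, so the difference of the effects was 1.41 (SE 0.29, limma adjusted p = 0.0288). For the chemokine gene Ccl9, at 552 and 582 CPM in the other cells, the difference was 1.16. Cdk6 was higher in the other knockout cells, at 267 against 208 CPM, and the difference was -1.51. The effect was more negative in the chosen cells for Rexo2, Fabp5 and Ran, with differences of -1.04, -1.11 and -0.90. Ran stood at 752 CPM in the knockout and 719 CPM in the wild type of the other cells. Cd74 was lower in the other knockout cells, at 342 against 559 CPM, and the difference was 1.46 (limma adjusted p = 0.00175). The other cells are of many types, whose shares may differ between genotypes.

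The dividing cells with Csf1r and Irf8, which held 799 cells, are the nearest comparison within the lineage. Here 9 of 3399 genes differed (0.265%), all more positive in the chosen cells. Wfdc17 stood at 14.0, 36.3 and 16.3 CPM in dividing knockout cells and at 47.5, 32.8 and 33.1 CPM in dividing wild type cells, where the groups overlapped and the effect of -0.77 was not called. The group means were 22.2 against 37.8 CPM there and 717 against 327 CPM in the chosen cells. The difference was 2.0 (SE 0.22, limma adjusted p = 0.000438). Ms4a6c, a membrane protein of monocytes, fell in dividing cells from 677 CPM in the wild type to 335 CPM in the knockout. In the chosen cells it stood at 986 and 891 CPM, and the difference was 0.83 (limma adjusted p = 0.0154). Its relative Ms4a6b likewise stood at 77.4 and 36.0 CPM in dividing cells and at 151 and 153 CPM in the chosen cells (difference 1.08).

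Lyz2 had a mean of 1237 CPM in wild type and 937 CPM in knockout dividing cells, and of 8615 and 14187 CPM in the chosen cells, where its samples overlapped. The difference was 1.5 (limma adjusted p = 0.0404). The remaining genes were Pid1 (2.51), S100a6 (0.91), Khk, the fructose kinase (1.11), Ppfia4 (1.05) and the lysosomal protease gene Ctss (0.80). The calls moved with single samples, with 9 genes in all samples, 101 without WT1 and 1 without WT3. With the title code as a covariate 4 of the 9 remained among 65. None of the 9 was called within the chosen cells alone, and 4 were called within the dividing cells, where 2.25% of tested genes were.

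Against 457 nonclassical monocyte-like cells, only 1314 genes could be tested and 2 differed (0.152%). Plac8, a cysteine-rich protein of monocytes, had means of 2027 CPM in knockout and 3027 CPM in wild type chosen cells, but 1534 and 853 CPM in nonclassical cells (difference -1.37, limma adjusted p = 0.0384). Lgals1, a galectin, had means of 3600.5 and 4875 CPM in the chosen cells and 504 and 313 CPM in nonclassical cells (difference -1.25, limma adjusted p = 0.0384). Nonclassical cells numbered 22 to 173 per sample.

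**Figure D5:**
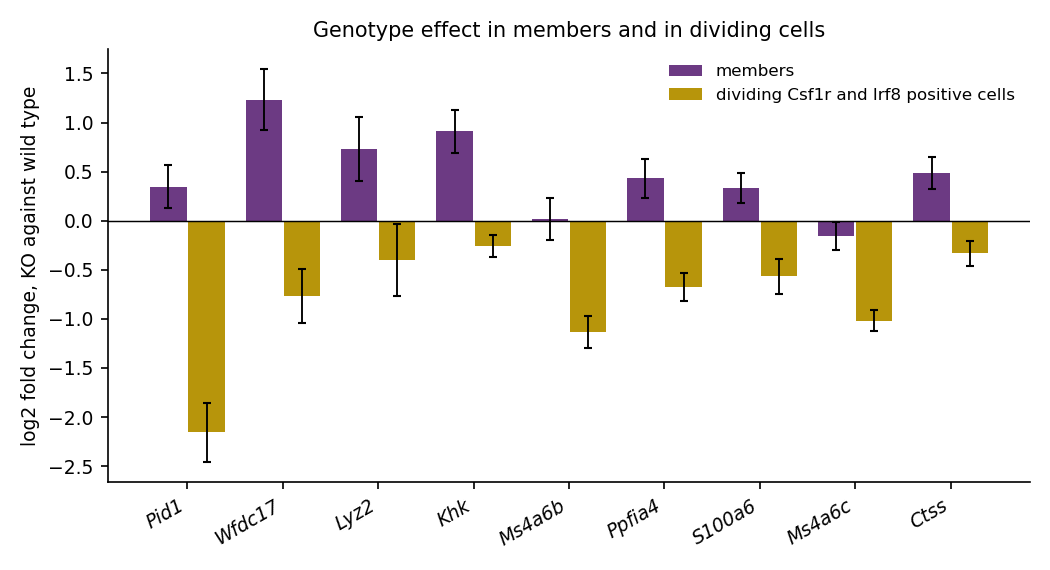
Log2 fold change of knockout against wild type in the chosen cells (purple) and in dividing Csf1r and Irf8 positive cells (gold), for the 9 genes whose effect differed between both. Error lines are standard errors of each fit. The gold bars are all below 0, and 8 of the 9 purple bars are above it, with Ms4a6c at -0.15.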

How the data were processed

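Single-cell libraries of Lin- mouse marrow from 3 Stag2 knockout and 3 wild type mice were used as UMI counts per gene and cell, which the authors deposited as whole numbers, 1 table per sample, with no normalization. The aligner, counter, genome build and annotation were not given in the sources used here. Unmapped columns numbered 0. Of 25636 deposited cells, 24307 with at least 500 genes were kept. Groups came from the genotype labels, and replicate numbers follow the order of the samples only. The members, gene lists and tests were chosen with earlier results of these data known.

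Chosen cells' counts were summed per sample. Values in the text are CPM with TMM scaling. edgeR 4.0.16 (R 4.3.3; filterByExpr, quasi-likelihood test, Benjamini-Hochberg adjustment, threshold 0.05) compared the genotypes, without the genes of the rule. Differences of the genotype effect between cell groups were tested with limma 3.58.1 on per-sample differences in log2 CPM (prior count 1). Shares were compared by exact permutation over 20 assignments. Thinning drew 2000 UMIs per cell. Doublets were scored against simulated doublets (0.8% expected per 1000 cells) and removed only in an alternative, where 16 chosen cells were lost. Genes were named if called, not overlapping and at a mean of at least 10 CPM (the 12 largest changes in each direction), if among the 4 smallest p of a list, or if fixed by name. Others called or singled out (Mgst1, Neat1, Stmn1, H2-DMa, Ran, Impdh2, Lsm7, Rpl35, the genes of differing effect and those of the Cd209a and Chil3 cells) were chosen after their values were seen. Alternatives numbered 37 planned and 7 added after seeing the data: DESeq2 1.42.0, other scaling, filters, title code, thinning, rule limits, cell removals and leaving out samples. The procedure was tested on simulated data. Intervals cover counting error only.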

Additional observations from a re-analysis of the deposited data

Results flagged for a closer look

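The genotype effect (knockout minus wild type, log2) differed between the chosen cells and other cells of the same mice, by limma's test of the difference with Benjamini-Hochberg adjusted p, for the genes given here. These are the differences themselves, and positive means a more positive effect in the chosen cells.

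Against all other kept cells the difference was 2.12 for Wfdc17, 1.46 for Cd74, 1.41 for Cybb, 1.18 for Ms4a6c and 1.16 for Ccl9. It was -0.90 for Ran, -1.04 for Rexo2, -1.11 for Fabp5 and -1.51 for Cdk6. Of these, Cybb, Rexo2, Fabp5 and Ran were also called within the chosen cells themselves.

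Against dividing cells with Csf1r and Irf8 the difference was 2.51 for Pid1, 2.0 for Wfdc17, 1.5 for Lyz2 and 1.11 for Khk. It was 1.08 for Ms4a6b, 1.05 for Ppfia4, 0.91 for S100a6, 0.83 for Ms4a6c and 0.80 for Ctss. Pid1 stood at 142 to 217 CPM in knockout and 126 to 137 CPM in wild type chosen cells, and at 2.51 to 10.7 CPM against 28.7 to 32.6 CPM in dividing cells.

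Against nonclassical monocyte-like cells the difference was -1.37 for Plac8 and -1.25 for Lgals1. WT1 held 2104 CPM of Plac8 in the chosen cells, within the knockout range of 1871 to 2166 CPM, and WT2 and WT3 held 3494 and 3483 CPM.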

How the results depend on the processing

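The 33 calls became 34 with another scaling, 40 in cells with at least 2000 UMIs, 19 with DESeq2, 150 without the low-count filter, 7 with the title code as a covariate, 12 after thinning, 10 with the cell cycle genes at 0, 10 without cells of 3 or more S phase UMIs, 7 without cells with Cd209a, 91 with the rule on thinned cells, 58 without cells with 1% of UMIs from another lineage, 1 without cells with 3 or more such UMIs, and 1107 without the Csf1r condition. With simulated doublets removed the count was 37, and 26 of the 33 remained. Without cells with Chil3 the count was 30, and 21 of the 33 remained. Leaving out 1 sample gave 6 (without KO1) to 173 (without WT1). All 33 remained without WT1. Slpi, Ifitm1, Mcemp1 and Rexo2 were called without each of the 6 samples. Calls within lists went from 12 to 6 with the title code, 7 after thinning, 21 without the 1% cells, 5 without S phase cells and 3 to 54 leaving out 1 sample. Differences of effect numbered 8 to 183 (other cells), 1 to 101 (dividing cells) and 0 to 1 (nonclassical cells) leaving out 1 sample, against 69, 9 and 2 from all. With the title code they were 96, 65 and 0, which held 26 of the 69, 4 of the 9 and 0 of the 2. The share difference of 0.451 points became -0.92 without the Csf1r condition. The cause was not tested for any of these.

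Directions turned for genes not called, apart from Atp1b1 (0.51 without the Csf1r condition). The fit with the title code and the fit on the samples of code XA both compare the knockouts with WT1 alone. Their values therefore lie close by design and are not separate checks. With the title code, and with the samples of code XA alone, values were 0.28 and 0.29 for Irf8, -0.43 and -0.42 for Cebpb, -0.16 and -0.15 for Ifitm2, -0.55 and -0.54 for Ifitm3, -0.81 and -0.81 for Ifitm6, -0.12 and -0.11 for Lyz2, -0.87 and -0.86 for Cx3cr1, 3.11 and 3.10 for S100a8, and 3.50 and 3.49 for S100a9. S100a8 and S100a9 were at 2.44 and 2.44 without doublets, 1.61 and 1.82 without the Csf1r condition, 2.18 and 2.53 without the 1% cells, and 2.62 and 1.90 with the rule on thinned cells. Without S phase cells S100a8 was at 1.78, Cebpa at -0.082, Ifitm2 at -0.0080, Ifitm3 at -0.082 and Ifitm6 at -0.085. Klf4 was at -0.063 after thinning, and Ifitm2 at -0.083 with the rule on thinned cells. Without cells with 3 or more UMIs of another lineage Irf8 was at 0.77, Ifitm3 at -0.13 and Cd74 at -0.57. Leaving out 1 sample gave -0.36 to 0.062 for Irf8, -0.036 to 0.25 for Ifitm2, -0.10 to 0.60 for Ifitm3, -0.087 to 0.75 for Cx3cr1, -1.13 to 3.09 for S100a8 and -1.19 to 4.02 for S100a9.

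No paired analysis was possible because the replicate numbers only follow sample order. The 21 cells of WT1 limit what low genes can show, and the title code and the genotype cannot be told apart beyond WT1.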
